A study of Papaver somniferum with 4 samples.

Results

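The arrays described here are the 3 of poppy plants (Papaver somniferum, cultivar Ofis 95) harvested 12 h after methyl jasmonate, set against the 9 other arrays of the series pooled. They were chosen by the sample their files are attached to, and make up 3 of 12 arrays and 1 of 4 samples. The 12 h plants, like those of the 0 h and 3 h samples, were pricked with sterile pins on leaves, stem and capsule after flowering and sprayed with 100 µM methyl jasmonate in ethanol with 0.1% Triton X-100. Control plants received the same ethanol and detergent without methyl jasmonate, and pricking is not stated for them. All plants grew in a greenhouse under 16 h of light at 20 °C and 8 h of dark at 18 °C. Each sample was read on 3 arrays, numbered here by the end of their array code: 1 to 3 control, 4 to 6 0 h, 7 to 9 3 h and 10 to 12 12 h. The authors' deposited table of log2 values combines the first 9 arrays in another way, and arrays 10, 11 and 12 are the only 3 that form the same sample in both sources. Pooling the other 9 therefore needs no choice between the groupings.

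The material limits what the comparison can carry. The labels name both leaves with fruits and capsule as the tissue, and do not say whether the 3 arrays of a sample hold RNA of separate plants. The p-values below therefore measure the spread between arrays, which may be technical, except where samples were averaged first. Levels of sequences were hardly reproduced between any 2 arrays, those of the same sample included. Their rank correlation over all sequences (Spearman's rho) ran from -0.0336 to 0.104 among the 66 pairs of arrays. This limits every difference given for a single sequence. The 12 h arrays also have the highest array numbers, so time after treatment and whatever the number stands for cannot be told apart. The labels do not say what it stands for.

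Jasmonates are plant hormones made from membrane lipids after wounding or attack. Perception of the active conjugate leads to the breakdown of JAZ repressor proteins, which frees transcription factors such as MYC2 to switch on defence genes. In poppies, jasmonate and wounding are known to raise transcripts of benzylisoquinoline alkaloid synthesis, the route from tyrosine through reticuline to morphine and noscapine. Lists of such genes were drawn up for morphine and noscapine synthesis, jasmonate signalling, wounding, photosynthesis and latex. None could be tested: the array files leave their gene annotation blank, and of 95608 identifiers 0 were found among the 91581 genes that RefSeq lists for assembly ASM357369v1. For the same reason the tissue could not be checked by marker genes. Sequences are therefore named by their identifier alone, either an expressed sequence tag (EST) or the number of a sequencing read, and at most 2 in each direction are named.

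No sequence passed the test for a difference between the 12 h arrays and the other 9. Intensities were taken to log2, each array was centred on its median, and limma was fitted to all 95608 sequences, each of which rests on 1 probe. Adjusted p was under 0.05 for 0 of them, a share of 0%, and the lowest adjusted p was 0.172. Without adjustment 7337 sequences, or 7.67%, had a p under 0.05, where chance gives 4780. These leaned to one side: 5646 (5.91%) were higher at 12 h and 1691 (1.77%) lower. Under quantile normalization 3459 were higher and 1639 lower, 5098 in all, and with array weights the total was 5461. The median standard error of a difference was 0.45 log2 units, so a 95% interval typically reached 0.92 log2 units, or 1.90-fold, to either side.

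The count of 0 depended on how the spread was estimated, and nearly every call gained was for a sequence higher at 12 h. A trended and robust prior in limma called 9 sequences, all higher. Treating the sample as a random block called 35, all higher, with an estimated correlation within samples of -0.088. Its standard errors were smaller than those of the main fit for the named sequences. For read 58695 the value was 0.410 against 0.456 log2 units, and for read 45423 0.373 against 0.414. With arrays 1 to 9 grouped as in the deposited table, an alternative added after the data were seen, the random block called 86, all higher. Averaging the 3 arrays of each sample first, so that 1 sample stood against 3, called 742 higher and 1 lower by the files' grouping, and 687 higher and 0 lower by the table's. That fit has no replicate at 12 h and assumes that the lone 12 h sample varies like the other samples. The 3 arrays of a sample differed from each other by a median SD of 0.617 log2 units at 12 h, against 0.488 in the control, 0.558 at 0 h and 0.577 at 3 h by the files' grouping. Leaving out 1 of the 12 h arrays also gave calls, all higher: 18 without array 10, 126 without array 11 and 396 without array 12. Leaving out any of the other 9 gave 0. In all, 8 of 30 settings made a call and 924 sequences were called at least once. Of these, 36 were called under 5 or more settings and 0 under all 8.

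Read 58695 had the highest moderated t. Its centred level, in log2 units above the array median, was 3.19 on array 10, 2.42 on array 11 and 1.46 on array 12. On the other 9 arrays it ran from -1.02 to 0.73 with a median of -0.48. All 3 of the 12 h values lay above all 9 others, with array 10 the highest and array 12 the lowest of the 3. The means were 2.36 ± 0.86 (SD, n = 3 arrays) at 12 h and -0.33 ± 0.64 (SD, n = 9) in the others. The difference was 2.69 ± 0.46 log2 units (SE, limma, adjusted p = 0.172). By the files' grouping, the others averaged -0.10 in the control, -0.06 at 0 h and -0.84 at 3 h. Read 58695 was above the random control probes on all 3 of the 12 h arrays, by 2.79-fold to 9.20-fold, and on only 2 of the other 9, so no exact fold is given. These probes are no floor of detection, since they lay near the middle of every array. From 49.9% (array 2) to 51.1% (array 11) of all sequences were above them.

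Read 45423 was next, with levels of 2.54, 2.04 and 1.59 on arrays 10, 11 and 12. The other arrays ran from -0.90 to 0.44 with a median of -0.59, again without overlap. Its means were 2.06 ± 0.48 (SD, n = 3 arrays) at 12 h and -0.33 ± 0.52 (SD, n = 9), a difference of 2.39 ± 0.41 (SE), with an adjusted p of 0.172 in limma. On the 12 h arrays it stood 3.04-fold to 5.88-fold above the random probes, and it was above them on only 3 of the other 9. In limma both reads passed under the trended prior (adjusted p = 0.0448), under the random block (0.0341, or 0.0256 by the table's grouping) and without array 11 or 12. Without array 10 neither passed (adjusted p = 0.124 and 0.123). With samples averaged the adjusted p was 0.00173 and 0.00454, in a fit with no replicate at 12 h. Their highest adjusted p over the alternatives tested was 0.797, in limma with the array number as a covariate. In the authors' deposited table the 12 h column exceeded the mean of the other 3 columns by 2.45 for read 58695 and 2.11 for read 45423.

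At the other end of the ranking stood read 62302. Its levels were -1.26, -0.56 and -0.89 on arrays 10, 11 and 12, against -0.25 to 1.33 with a median of 0.72 on the others. The groups did not overlap, and array 9, of the 3 h sample by the files' grouping and the control by the table's, came closest. The difference was -1.59 ± 0.41 log2 units (SE, limma, adjusted p = 0.288) between means of -0.91 ± 0.35 (SD, n = 3 arrays) and 0.69 ± 0.53 (SD, n = 9). Read 62302 was above the random probes on 0 of the 12 h arrays and on 8 of the other 9, so the fold has only a bound. With the 12 h values raised to the random probes, the other arrays were at least 1.62-fold higher. With the array number as a covariate the difference was -0.96, smaller by more than 1.5 times. In that fit the difference was larger than in the main fit for read 58695, at 3.45, and smaller for read 45423, at 2.13.

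EST FG609514 had the next lowest moderated t, with levels of -0.95, -0.999 and -0.15 on arrays 10, 11 and 12. The other arrays ran from 0.01 to 1.77 with a median of 1.004, so the groups did not overlap, although array 12 lay within 0.16 log2 units of the lowest of them. The means were -0.70 ± 0.47 (SD, n = 3 arrays) and 0.91 ± 0.57 (SD, n = 9), a difference of -1.61 ± 0.42 (SE, limma, adjusted p = 0.289). It was above the random probes on 0 of the 12 h arrays and on all 9 others, whose mean was at least 1.90-fold higher by the same bound. On arrays 2 and 7 it exceeded the random probes by only 0.006 and 0.030 log2 units. With the array number as a covariate the difference of EST FG609514 was larger, at -1.96. Neither read 62302 nor EST FG609514 passed in limma under any alternative tested. The corresponding differences in the authors' deposited table were -1.58 for read 62302 and -1.63 for EST FG609514.

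**Figure D1:**
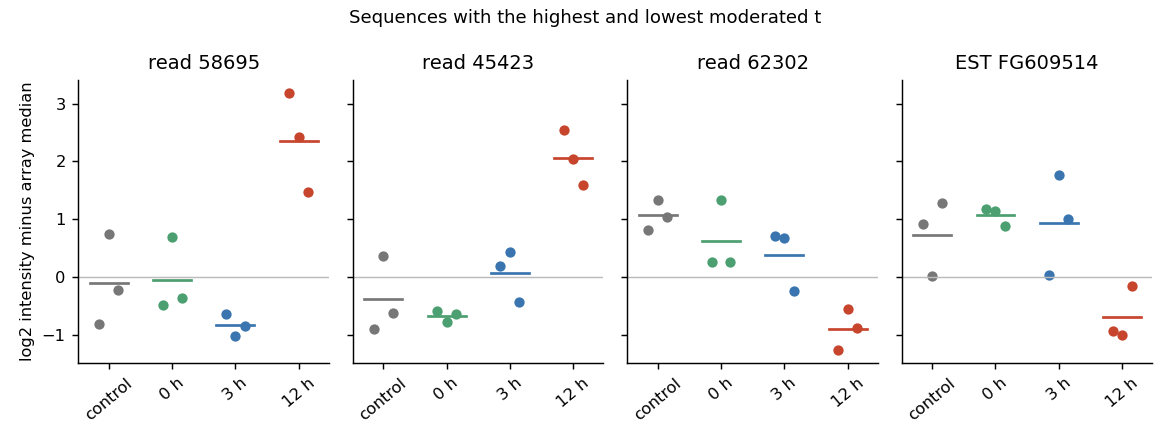
Log2 intensity minus the array median (y axis) of the sequences at the 2 ends of the ranking by moderated t, by sample. Samples are as the files group them. Each point is 1 array in order of array number and each bar the mean of 3. The 12 h points of reads 58695 and 45423 lie above all others, and those of read 62302 and EST FG609514 below all others.

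The choice by t favours sequences that are bright on the 12 h arrays at the upper end and dim at the lower. The 20 highest moderated t belonged to 18 reads and 2 ESTs, where 19100 of the 95608 sequences are ESTs, with differences from 1.95 to 2.87 log2 units and an adjusted p of 0.172 for all 20 in limma. Of these 20, 17 were at least 2-fold above the random probes on all 3 of the 12 h arrays. The 20 lowest were 11 reads and 9 ESTs, with differences from -1.61 to -1.38 and adjusted p from 0.288 to 0.356. Here 19 of 20 were above the random probes on none of the 12 h arrays.

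Array 10 had an upper tail unlike that of any other array. The share of sequences that exceeded the random probes by 4-fold or more was 6.61% on array 10, 1.24% on array 11 and 2.08% on array 12. On the other 9 arrays it ran from 0.529% to 1.70% with a median of 0.937%. The difference of the means was 2.29 percentage points (exact permutation test over 220 choices of 3 arrays, two-sided, p = 0.0182), and 0.127 after adjustment over the 7 array-wide measures tested. The smallest p this design allows is 0.00455. Without array 10 the difference was 0.638 points (exact p = 0.0909 over 55 choices), and array 11 lay within the range of the other 9.

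The share at least 2-fold above the random probes overlapped between the groups. It was 18.3%, 11.3% and 14.5% on arrays 10, 11 and 12, against 7.28% to 16.1% with a median of 10.1%. The means were 14.7% ± 3.496 (SD, n = 3 arrays) and 10.7% ± 2.70 (SD, n = 9; exact permutation p = 0.0545, adjusted 0.191). Without array 10 the difference fell from 4.03 to 2.24 points. The spread of log2 values within an array (its SD over all sequences) was 1.09 on array 10, 0.692 on array 11 and 0.76 on array 12. The others ran from 0.596 to 0.858 (exact permutation p = 0.10, adjusted 0.233), and the difference of the means fell from 0.146 to 0.0245 without array 10.

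In overall brightness the 12 h arrays lay within the range of the other 9. The median log2 intensity before centring was 8.61 ± 0.11 (SD, n = 3 arrays) at 12 h and 8.61 ± 0.16 (SD, n = 9) in the others. The random probes were at 8.60 ± 0.11 and 8.60 ± 0.16. The share at least 2-fold below the random probes was 2.91% ± 2.52 and 2.51% ± 2.58, and intensities over 60000 numbered 42, 2 and 3 on arrays 10, 11 and 12 against 0 to 69. The exact permutation p of these 4 measures was 0.855 or above before adjustment.

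**Figure D2:**
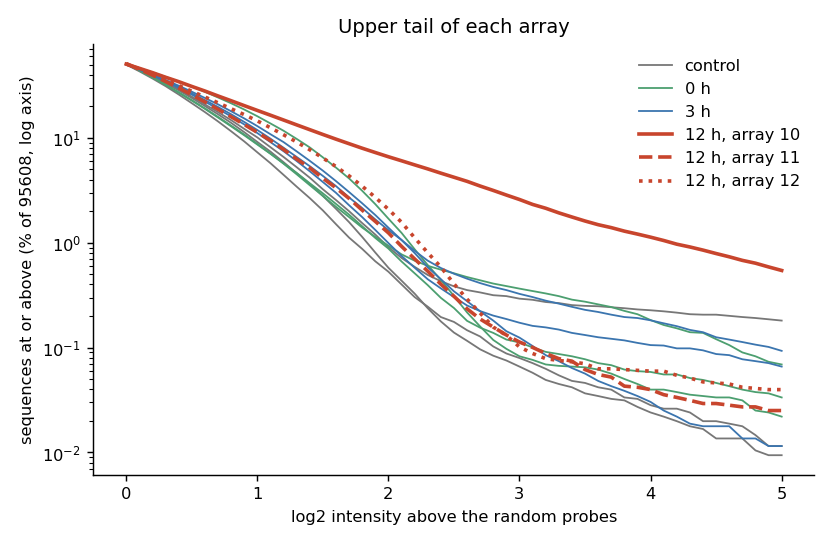
Share of the 95608 sequences (y axis, log scale) at or above a given log2 intensity over the random probes (x axis); each line is 1 array. The line of array 10 separates upward from the other 11, reaching 6.61% at 2 log2 units, while arrays 11 and 12 run at 1.24% and 2.08% there.

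Sequences that were bright on array 10 were bright somewhat more often on array 11, and less often on array 12, than sequences in general. On array 10, 6316 sequences exceeded the random probes by 4-fold or more. Of these, 13.4% were at least 2-fold above them on array 11, where 11.3% of all sequences were. On array 12 the share was 11.004%, against 14.5% of all sequences. On arrays 1 to 9 it departed from the share of all sequences by -2.68 to 1.82 percentage points. Arrays 11 and 12 shared more with each other. Of the 1188 sequences at that level on array 11, 30.7% were at least 2-fold above the random probes on array 12, and of the 1993 on array 12, 18.9% were so on array 11. For the 1993, the departure on array 6 was larger still, with 20.7% against 8.64% of all its sequences. Array 6 is of the 0 h sample by the files' grouping and of the 3 h sample by the table's.

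The brightest 1% of each array, 956 sequences, were compared as well. Those of array 10 had a median of 5.08 log2 units above the array median there. On arrays 11 and 12 their median was -0.10 and -0.14, and on the other 9 it lay between -0.21 and 0.12. The brightest of array 11 had a median of 2.31 on their own array and 0.35 on array 12, and those of array 12 had 2.43 on their own and 0.19 on array 11. Arrays 10 and 11 had 4 of these sequences in common (0.418% of each list), arrays 10 and 12 had 2 (0.209%), and arrays 11 and 12 had 45 (4.71%). Arrays 6 and 12 had 64 in common (6.69%) and arrays 6 and 11 had 61 (6.38%), the highest counts among the 66 pairs. No sequence was in the brightest 1% on all 3 of the 12 h arrays. The control, 0 h and 3 h samples each had 5 by the files' grouping, and 2, 4 and 2 by the table's. The cutoff for the brightest 1% was 4.16 log2 units above the random probes on array 10, against 1.75 to 2.24 on the other arrays. ESTs FG602734 and FG604964 were in the brightest 1% on every array except array 10. There they stood 2.90 and 3.11 log2 units above the random probes, so the 0 at 12 h depended on the cutoff of array 10.

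Across all sequences the 12 h arrays resembled each other about as weakly as they resembled the other arrays. Spearman's rho was 0.0273 for arrays 10 and 11, -0.0226 for arrays 10 and 12 and 0.0576 for arrays 11 and 12, with a mean of 0.0208. The 27 pairs of a 12 h array with another had a mean of 0.0198 and ranged from -0.0336 to 0.0653. The 36 pairs among the other 9 had a mean of 0.0367 and ranged from -0.00774 to 0.104, so likeness was weak throughout the series. Each value runs over 95608 sequences of 2 arrays, and sequences are no replicates, so it is a description without a p-value.

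**Figure D3:**
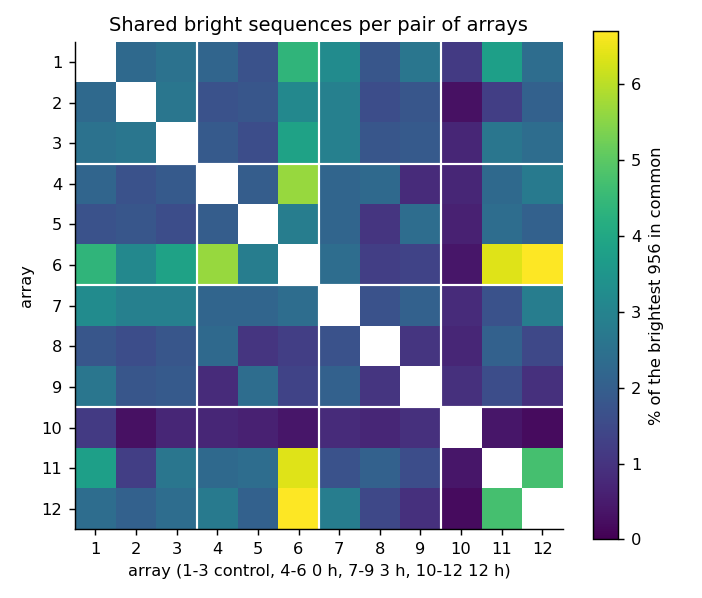
Percent of the brightest 956 sequences that 2 arrays have in common (colour), for each pair of the 12 arrays. White lines divide the samples as the files group them. The row of array 10 is dark throughout, and the pairs of array 6 with arrays 11 and 12 are the brightest, at 6.38% and 6.69%.

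The sequences with a mean difference of at least 2-fold were mostly higher at 12 h. They numbered 5438 higher (5.69%) and 1206 lower (1.26%), so that 81.8% of them were higher. Under quantile normalization the numbers were 2753 and 1321, and 67.6% were higher. The authors' deposited table gave 3057 higher and 1422 lower. The median difference of all sequences was 0.02 log2 units, and the middle 90% lay between -0.75 and 1.05.

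A single array carried much of the upper side. Array 10 was the highest of the 3 for 3703 of the 5438 sequences, or 68.1%, against 665 for array 11 and 1070 for array 12. Without array 10, 1997 of the 5438 (36.7%) were still at least 2-fold higher, against 4701 without array 11 and 4386 without array 12. All 3 arrays lay above their median for 2650 of them. Only 792 kept a 2-fold difference whichever 12 h array was left out. Of the 1206 that were lower, 768 kept a 2-fold difference without array 10, and 457 whichever array was left out. With arrays 11 and 12 alone, 5341 passed the 2-fold mark upward and 1830 downward, and 1997 of these 5341 were among the 5438. Leaving out array 11 instead put 9352 past the mark upward and 2692 downward. Leaving out array 12 put 8607 and 2499 past it. Both numbers were thus lowest when array 10 was the one left out.

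**Figure D4:**
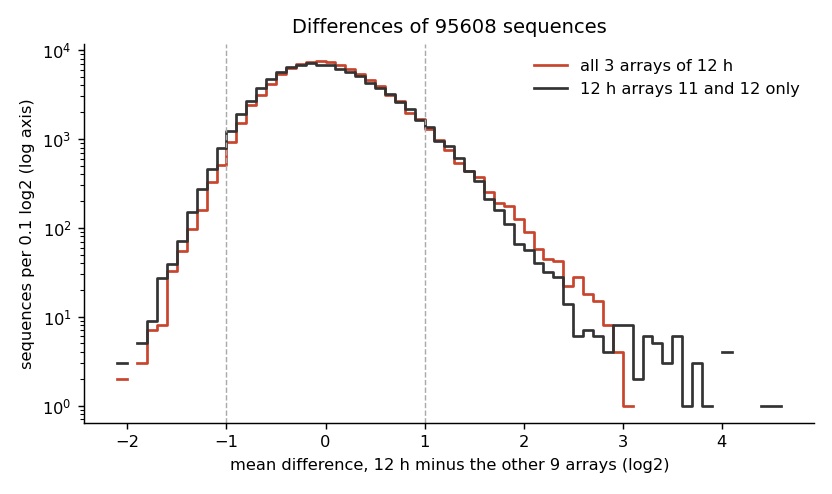
Number of sequences per 0.1 log2 units (y axis, log scale) by mean difference of the 12 h arrays from the other 9 (x axis), with all 3 arrays and with arrays 11 and 12 only; dashed lines mark a 2-fold difference. The upper side is longer than the lower in both, with 5438 sequences at least 2-fold higher and 1206 lower for all 3 arrays.

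Complete separation of the 12 h arrays from the other 9 was about as frequent in both directions. All 3 lay above the range of the 9 for 567 sequences (0.593%) and below it for 556 (0.582%). If all 12 arrays were interchangeable, chance alone would give 1 in 220 sequences in each direction. Whether the counts exceed that share was not tested. The gap was at least 1 log2 unit for 7 of the higher and 0 of the lower, and its median was 0.18 and 0.12 log2 units. Of the 567, 439 had a mean difference of at least 2-fold and 110 were at least 2-fold above the random probes on all 3 of the 12 h arrays. Of the 556, 240 were at least 2-fold lower, and 529 were above the random probes on no 12 h array.

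Each other sample was set against its own 9 remaining arrays in the same way, a comparison added after the data were seen. It needs a grouping of arrays 1 to 9, here that of the files unless the table's is named. The 4 comparisons reuse the same 12 arrays, so their counts are not independent. The share at least 2-fold higher was 1.67% for the control, 2.02% for 0 h and 2.63% for 3 h, below the 5.69% of 12 h. By the table's grouping it was 2.09%, 1.69% and 2.14%. The share at least 2-fold lower was 1.47%, 1.59% and 1.52%, above the 1.26% of 12 h, but 1.83%, 1.28% and 1.15% by the table's grouping, on both sides of it. Separation differed less. The 3 arrays lay above the other 9 for 0.418%, 0.395% and 0.543% of sequences and below them for 0.375%, 0.367% and 0.636%, so that the 3 h sample exceeded 12 h on the lower side. By the table's grouping these shares were 0.462%, 0.361% and 0.397% above and 0.562%, 0.279% and 0.371% below, all under those of 12 h. The difference between samples in these counts was not tested.

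**Figure D5:**
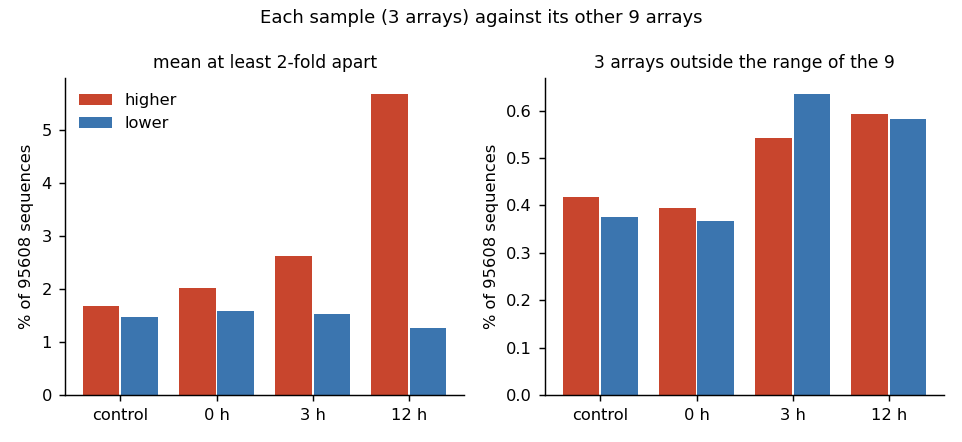
Percent of the 95608 sequences (y axes) whose 3 arrays of a sample differ from the remaining 9 by at least 2-fold in the mean (left) or lie wholly outside their range (right), higher and lower, with samples as the files group them. The bar for 12 h higher stands at 5.69% on the left, while on the right 12 h is at 0.593% and 0.582% and 3 h at 0.543% and 0.636%.

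Bright signal on all 3 of the 12 h arrays was rare. At least 2-fold above the random probes on all 3 were 350 sequences, or 0.366%, while 30135 were so on 1 of the 3 and 5479 on 2. The same count was 154 in the control, 233 at 0 h and 227 at 3 h by the files' grouping, and 189, 100 and 190 by the table's. Such counts rise with the shares that bright that single arrays hold. Those were 18.3%, 11.3% and 14.5% on arrays 10, 11 and 12, against 7.28% to 16.1% on the other 9. Whether any count exceeds that of unrelated arrays with these shares was not tested. Of the 350, 66 (18.9%) were that bright on none of the other 9 arrays, 87 on 1 of them and 73 on 2. The share seen on none of the other 9 was 22.7% for the control, 12.9% for 0 h and 27.3% for 3 h, or 17.5%, 25% and 16.8% by the table's grouping. The same share over all sequences was not computed, so the 66 cannot be called particular to 12 h. At 4-fold above the random probes the 12 h count was 11, against 4, 5 and 5 by the files' grouping and 2, 4 and 2 by the table's.

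Among those 11, ESTs FG602734 and FG604964, were bright throughout the series. FG602734 stood at 2.89, 2.73 and 2.89 log2 units above the median of arrays 10, 11 and 12, against 2.76 to 3.76 on the others, and FG604964 at 3.10, 3.51 and 2.91, against 2.17 to 3.88. Their differences from the other 9 were -0.22 ± 0.38 and 0.22 ± 0.40 (SE, limma, adjusted p = 0.928 and 0.931), and became -0.68 and -0.18 under quantile normalization and -0.90 and -0.27 in the authors' deposited table.

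ESTs and read-derived sequences gave similar shares at 12 h. At least 2-fold higher were 5.63% of 19100 ESTs and 5.70% of 76508 reads, and at least 2-fold lower 1.31% and 1.25%. All 3 arrays lay above the other 9 for 0.644% of the ESTs and 0.580% of the reads, and below them for 0.649% and 0.565%. Bright on all 3 of the 12 h arrays were 0.377% and 0.363%. The median difference was 0.02 log2 units in both classes.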

How the data were processed

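The authors deposited 1 intensity per sequence and array on a linear scale, made with RMA per the submitters' processing notes (software and version not given in the sources used here), and log2 values in a table whose 4 columns stand for the samples. A further row pools 45055 random control probes and served as a reference level, which lay near the median of every array. Deposited intensities were taken to log2 and centred on each array's median, which sets aside any change shared by all sequences. No filter was applied. The 3 arrays of 12 h were compared with the other 9 in limma 3.58.1 (R 4.3.3; lmFit, eBayes, Benjamini-Hochberg; prior df 17.1, residual df 10), and array-wide measures by exact permutation tests. Which arrays each column of the deposited table rests on was found by regression on the quantile-normalized arrays. The members, lists and tests were chosen with earlier results of these data known. Named sequences are the 2 highest and 2 lowest by moderated t, given as values where none passed. The 2 bright ESTs were named because earlier results showed them.

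Alternatives were a trended and robust prior, array weights, quantile normalization, no centring, 2 filters against dim sequences, 4 groups as in the files or as in the table, 12 h against single samples, the sample as a random block, averaged samples, array number as a covariate, an adjusted p of 0.01, the deposited table and leaving out each array. For arrays, precision is limited by their number.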

Additional observations from a re-analysis of the deposited data

Results flagged for a closer look

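In 3 of 13 sets of values tested, 1 of the 9 other arrays stood apart from the remaining 8 by Dixon's gap test, which flags about 1 in 20 sets by chance. On array 5, 8.79% of the sequences were at least 2-fold below the random probes. It is of the 0 h sample by the files' grouping and of the control by the table's. Array 3, of the control by the files' grouping and of the 0 h sample by the table's, had 69 intensities over 60000. EST FG602734 was at 3.76 log2 units above the median on array 5. None of these arrays belongs to the 12 h sample, whose 3 arrays are too few for this test.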

How the results depend on the processing

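The count of sequences past the threshold was 0 with no centring, quantile normalization, either filter, array weights, either 4-group fit, 12 h against single samples, array number as a covariate and an adjusted p of 0.01. It was 9 with a trended and robust prior, 35 with the sample as a random block and 743 with samples averaged, or 86 and 687 with the grouping of the deposited table, added after seeing the data. The cause of these calls was not tested. Leaving out 1 array gave 0 to 396 calls. It gave 5341 to 9352 sequences at least 2-fold higher and 1305 to 2692 lower, and 693 to 2556 above and 666 to 2342 below the range of the rest, where fewer arrays make separation easier by construction. Quantile normalization gave 2753 at least 2-fold higher, and 3057 were so in the deposited table. The filter on mean level left 269 sequences, with 34 higher, 14 lower, 3 above and 1 below the range. At least 2-fold higher were 12.6% of them and lower 5.20%, against 5.69% and 1.26% of all sequences. That mean included the 12 h arrays, so a sequence could pass by being high at 12 h, and these shares are no separate support. At 4-fold above the random probes, 11 sequences were bright on all 3 of the 12 h arrays. Differences in 4 array-wide measures changed sign when 1 array was left out: median log2 ran from -0.0389 to 0.0615, the random probes from -0.046 to 0.0534, the share 2-fold below them from -1.05 to 1.18 points and intensities over 60000 from -10.1 to 10.2. None of the 7 measures passed after adjustment under any alternative. The difference of EST FG604964 was reversed to -0.179 under quantile normalization and -0.266 in the deposited table. No paired analysis was possible because the labels give each group 1 sample and no replicate numbers.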
